A study of Medicago truncatula with 160 samples.

Results

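The 200 Medicago truncatula genes described here were those whose transcript level varied least over 160 nodule libraries. A gene could enter if its identifier started with MtrunA17_Chr, which marks genes placed on the chromosomes or on unplaced scaffolds, and if its mean level was 20 CPM (counts per 1000000 plant counts) or more. Of 49928 M. truncatula genes in the table, 4414 met both conditions and are called eligible genes here, and the 200 with the smallest standard deviation (SD) of log2(CPM + 1) over all libraries were taken. The SD that chose these genes is therefore a description here and not a finding. CPM was computed with TMM factors, which rescale each library so that most plant genes have a similar level. Which genes were taken depended strongly on that step.

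The nodules came from 2 M. truncatula lines, DZA and A17, each inoculated singly with 1 of 20 Sinorhizobium meliloti strains and grown in a greenhouse. Each host and strain group had 4 plants, which gave 80 DZA and 80 A17 libraries in 40 groups, with 1 plant per library and several mature nodules pooled per plant. The 20 strain names were the same on both hosts, and no uninoculated root or other organ was among the samples. Both hosts were quantified against A17 reference transcripts, so for DZA a sequence difference from A17 can move a gene's count, and this was not tested. The design compared strains within a host, and here it serves to describe how far the least variable plant genes moved with host, strain and plant.

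Reference genes are used as the denominator when other transcripts are measured, as in quantitative PCR. They are usually sought among genes that every cell needs, such as those for mRNA processing, translation, protein folding and protein turnover. A nodule is a demanding tissue for this purpose, since it holds plant cells and intracellular rhizobia in proportions that change with age and partner, and since infected cells make very large amounts of a few transcripts, among them leghemoglobins, which buffer oxygen for nitrogen fixation, and secreted NCR peptides, which steer bacterial differentiation. When a few transcripts expand, every other gene takes a smaller share of the counts even if its own amount per cell is unchanged.

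The libraries held 28474905 to 75617864 counts in total and 2282889 to 58577582 plant counts. The share of counts from S. meliloti rows (the rhizobial share) ranged from 3.68% to 96.3%. The 10 most abundant plant genes made up 21.0% to 86.8% of each library's plant counts, and which genes these were is not given here. The 9 oxygen carrier genes, taken here as leghemoglobin genes, summed to at most 17400 CPM in DZA libraries and 14530 CPM in A17 libraries. MtrunA17_Chr4g0034311, 1 of these 9, had a mean of only 0.73 CPM. The authors' transcripts included ribosomal and other noncoding RNA of the plant and RNA genes of S. meliloti, so these shares can include them. The summed level of 9 nodule marker genes was 192 to 1327 CPM in DZA libraries and 46.2 to 1320 CPM in A17 libraries, while 3 chlorophyll a-b binding genes, used as leaf markers, summed to at most 8.51 CPM. The library that stood apart was A17 plant 3110 with strain 216. It had 2282889 plant counts and a rhizobial share of 96.3%, and NIN, the transcription factor required for nodule inception, was at 16.1 CPM there, against a median of 191 CPM over A17 libraries. Of the 200 genes, 177 had their lowest level in that library, as did 3637 of the eligible genes (82.4%). The DZA library labelled strain 182, plant 3406, went against its label. Of 226 S. meliloti genes that were on (10 CPM or more, by S. meliloti counts) in the 3 other DZA plants of strain 182 and off (1 CPM or less) in at least 3 DZA plants of strain 176A, 0 were on in this library. All 25 genes with the opposite pattern were on there. Leaving this library out kept all 200 genes in the list.

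The SD of the 200 genes ran between 0.199 and 0.315 with a median of 0.289, against a median of 0.575 over the eligible genes. The lowest and highest library differed 5.43-fold for the median member and 24.2-fold for the median eligible gene. For 42 members the whole span over 160 libraries was at most 4-fold, which held for 63 eligible genes. Counting error was a small part of this, since Poisson sampling alone would give the members a median SD of 0.060 on the log2 scale. The members' SD was several times this counting error.

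**Figure D1:**
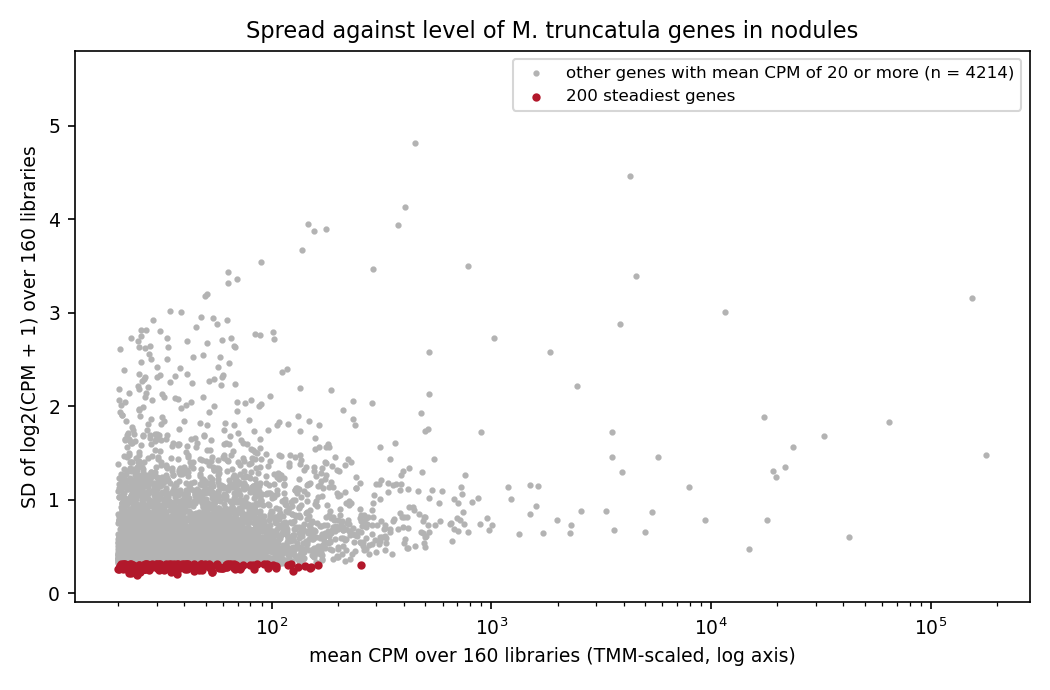
SD of log2(CPM + 1) over 160 libraries (vertical axis) against mean CPM (horizontal axis, log scale) for 4414 eligible genes, each a point, with the 200 steadiest in red. The 200 genes lie along the lower edge, mostly under 100 CPM, and 12 of them are above that level.

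The steadiest gene was MtrunA17_Chr7g0272631, with 15.0, 24.5 and 41.8 CPM as lowest, median and highest of the DZA libraries, against 15.3, 24.1 and 30.4 CPM in A17. MtrunA17_Chr3g0121221 had 27.8, 37.4 and 49.5 CPM in DZA libraries and 17.1, 37.9 and 46.4 CPM in A17 libraries. MtrunA17_Chr3g0135621 had 16.8, 22.5 and 31.7 CPM in DZA libraries and 10.3, 22.6 and 30.9 CPM in A17 libraries. The ranges of the hosts overlapped for each of these 3 genes and their medians were close. The highest DZA value of each gene lay above the A17 range. The lowest DZA value of the first gene lay just below the A17 range, and the lowest A17 values of the second and the third lay below the DZA range. The lowest A17 value of the second and the third came from plant 3110 with strain 216. In that library MtrunA17_Chr7g0272631 was at 19.8 CPM, inside the range of the other libraries.

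**Figure D2:**
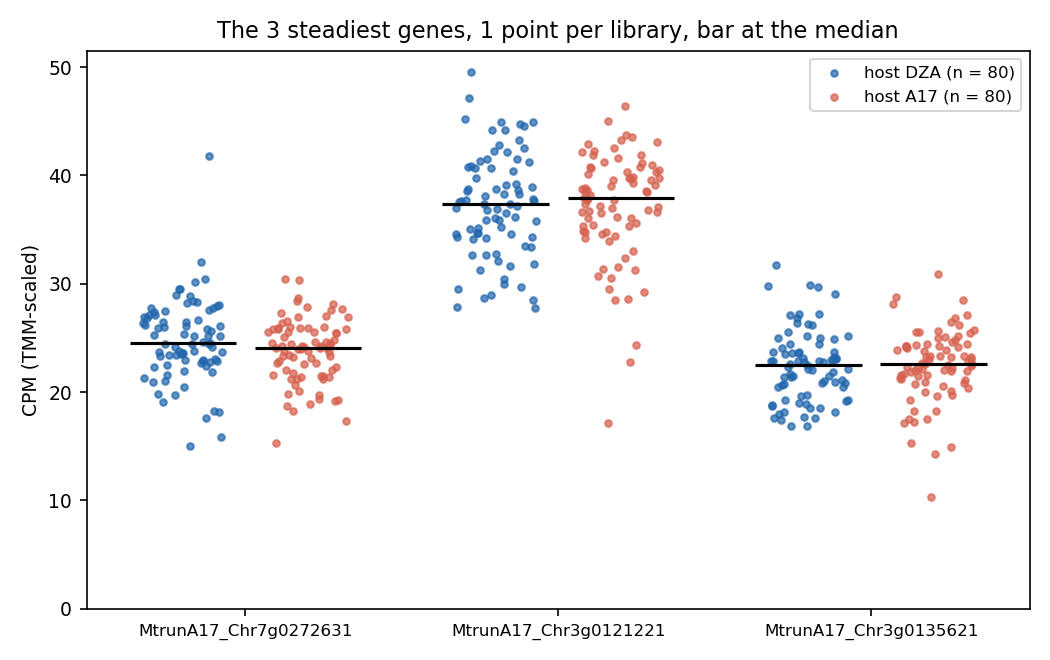
CPM of the 3 steadiest genes in each library (1 point per library, 80 DZA libraries in blue left of 80 A17 libraries in red), with a bar at the median. The medians are 24.5 CPM on DZA and 24.1 CPM on A17 for the first gene, 37.4 CPM on DZA and 37.9 CPM on A17 for the second, and 22.5 CPM on DZA and 22.6 CPM on A17 for the third.

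The next 7 genes by SD were MtrunA17_Chr1g0207661, MtrunA17_Chr7g0247771, MtrunA17_Chr1g0164171, MtrunA17_Chr6g0479291, MtrunA17_Chr8g0348881, MtrunA17_Chr3g0123681 and MtrunA17_Chr3g0137501, with SDs of 0.217 to 0.235. Their mean levels lay between 22.7 and 53.7 CPM. Among these 7 the narrowest span was that of MtrunA17_Chr1g0164171, with 37.9, 56.2 and 79.7 CPM in DZA libraries and 30.9, 51.1 and 66.1 CPM in A17 libraries, a span of 2.58-fold from the lowest to the highest library. None of the 10 steadiest genes carried a name or a function in the sources used here.

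The edge of the list was not a break. The 3 genes just inside it, MtrunA17_Chr4g0076491, MtrunA17_Chr7g0214901 and MtrunA17_Chr7g0276671, had SDs of 0.315, and the 3 just outside, MtrunA17_Chr3g0142871, MtrunA17_Chr5g0405961 and MtrunA17_Chr8g0347801, had SDs of 0.315 to 0.316. Genes on either side of this rank are thus alike in the value that chose them.

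The 200 genes were moderately expressed, with a median mean level of 34.1 CPM and a range of 20.1 to 255 CPM. Among eligible genes between 20 and 30 CPM, 5.33% were members, and among those at 200 CPM or more 0.429% were, which is 1 of 233 genes. That gene was MtrunA17_Chr8g0375021, with 250.8 CPM as the DZA median and 264.5 CPM as the A17 median. Its lowest value was 39.8 CPM in A17 plant 3110 with strain 216. That library alone held 46.5% of its sum of squares, and without it its SD was 0.222. The other members above 118 CPM on average were MtrunA17_Chr7g0255431, MtrunA17_Chr8g0348721, MtrunA17_Chr2g0312441, MtrunA17_Chr4g0052551, MtrunA17_Chr2g0304751, MtrunA17_Chr2g0323101, MtrunA17_Chr2g0309671 and MtrunA17_Chr1g0205451, and the tenth by level was MtrunA17_Chr4g0052561 at 105 CPM. Of these, MtrunA17_Chr2g0323101 was the steadiest, at rank 11, with a lowest, median and highest level of 63.9, 125.7 and 153.8 CPM in DZA libraries and 32.2, 128.2 and 152.6 CPM in A17 libraries.

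The members lay on all 8 chromosomes. Chromosome 4 held 39 of them and chromosome 1 held 35, which is 4.92 and 5.31 members per 100 eligible genes there. Chromosome 5 held 11 and chromosome 6 held 6, or 2.05 and 2.45 per 100 eligible genes, and 1 member was on an unplaced scaffold. There were 3 pairs of members with consecutive identifiers, all on chromosome 4 (MtrunA17_Chr4g0027711 with MtrunA17_Chr4g0027721, MtrunA17_Chr4g0048931 with MtrunA17_Chr4g0048941, and MtrunA17_Chr4g0052551 with MtrunA17_Chr4g0052561), so reads could be shared if the models overlap or are copies, which was not tested.

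Little is known of what these genes encode from the sources used here. A description or an ontology term was at hand for 8 of the 200 members and for 202 eligible genes, and 3 of the 8 are described only as hypothetical proteins (MtrunA17_Chr1g0196931, MtrunA17_Chr2g0286941 and MtrunA17_Chr1g0175741). The other 5 carried terms of basic RNA and protein handling. The terms came from the study's lists of ontology terms enriched in its top modules of coexpressed plant genes. Genes that carry a term are thus a selected set. MtrunA17_Chr8g0369121, at rank 48 with a mean of 38.2 CPM, carried the term mRNA processing, and MtrunA17_Chr3g0094801, at rank 196 with 37.5 CPM, the terms for splicing and the catalytic spliceosome, the complex that removes introns. MtrunA17_Chr2g0277001, at rank 129 with 102 CPM, carried translation initiation factor activity, the step that loads ribosomes on mRNA. MtrunA17_Chr2g0279331, at rank 160 with 73.7 CPM, carried mRNA binding.

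The fifth, MtrunA17_Chr3g0138061, carried the term peptidyl-prolyl cis-trans isomerase activity, the enzyme class of the cyclophilins, which help proteins fold and are a conventional reference family for PCR. It stood at rank 150. It had 35.6 CPM as the median of DZA libraries and 41.2 CPM in A17, with highest values of 58.6 and 70.6 CPM, and the ranges overlapped widely. Its log2 difference, DZA over A17, was -0.21 ± 0.05 (SE) with an adjusted p of 9.35e-05 by edgeR's quasi-likelihood test, as a description since the host spread was part of the choice.

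Conventional reference families could be looked up only as far as terms were given. Of the 5 eligible genes with a cis-trans isomerase term 1 was a member, and none of the 5 eligible genes with a ubiquitin-conjugating enzyme term was. The steadiest of the ubiquitin-conjugating genes, enzymes that carry ubiquitin to proteins, was MtrunA17_Chr8g0345331 at rank 614, with an SD of 0.378. It had 25.5 CPM as the DZA median and 28.2 CPM as the A17 median, and its lowest value, 2.37 CPM, was again in A17 plant 3110 with strain 216. Without that library its SD was 0.291. No eligible gene was at hand with a description as actin, tubulin, elongation factor 1-alpha, glyceraldehyde-3-phosphate dehydrogenase or histone H3, and nothing is said of those families here. Over the wider classes, splicing had 1 member among 18 eligible genes with such a term, translation initiation and elongation 1 of 10, and RNA binding and decay 3 of 25, while members make up 4.53% of all eligible genes. The median SD of these classes was 0.520, 0.618 and 0.547. There were 0 members among 9 eligible genes of ubiquitin ligases and conjugating enzymes, 4 of vesicle traffic, 3 of chromatin, 2 of autophagy, and 1 each of the transcription machinery, chaperones and ATP synthases. The median SDs of the first 4 of these were 0.462, 0.581, 0.743 and 0.435. With so few annotated genes, and with terms only from lists of enriched terms, no class is set apart from the rest.

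Of 84 genes in the study's list of symbiosis genes, 33 were eligible and 0 were members, where members make up 4.53% of all eligible genes. Their median SD was 0.656, inside the range of the class medians given above, against 0.575 for all eligible genes. The steadiest of them was MtrunA17_Chr7g0267461 at rank 283, described as digalactosyldiacylglycerol synthase 1, a galactolipid synthase. NIN stood at rank 1398 with an SD of 0.467, NF-YA1, a transcription factor of nodule meristem development, at rank 1622 with 0.496, and SymCRK, a receptor kinase that restrains defence in infected cells, at rank 3545 with 0.944. NCR169, one of the NCR peptides, stood at rank 4048 with an SD of 1.28. The 8 eligible oxygen carrier (leghemoglobin) genes had a median SD of 0.855.

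With TMM the members' own mean level was nearly the same on both hosts. The rule chose them for a small spread of these values over hosts and strains, so this and the strain spans below are a description. Averaged over the 200 genes, log2(CPM + 1) was 4.65, 5.28 and 5.47 as lowest, median and highest of the DZA libraries, against 3.58, 5.30 and 5.43 of the A17 libraries. It lay within 0.2 of the overall mean in 69 of the DZA libraries and 71 of the A17 libraries, 140 of 160 in all. Strain means of this average ran between 5.11 and 5.35 on DZA and between 4.91 and 5.36 on A17, where the lowest was strain 216. Without plant 3110 the A17 range was 5.16 to 5.36. The span of strain means was thus 0.24 on DZA and 0.20 on A17 without that plant. Over all 160 libraries the average deviated from its overall mean by -1.67 to 0.22 with TMM. With plain plant totals these deviations ran from -2.22 to 0.69.

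**Figure D3:**
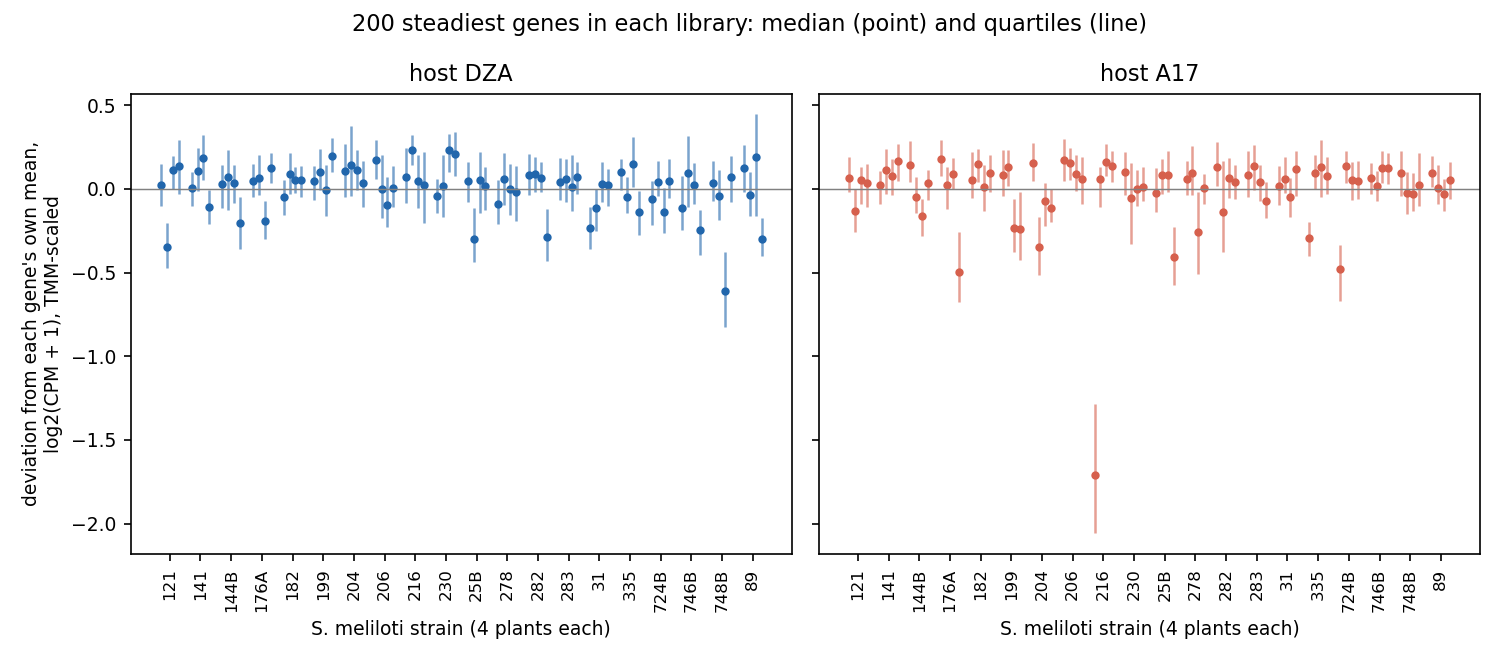
Deviation of the 200 genes from their own means in each library, log2(CPM + 1), as median (point) and quartiles (line), for 80 DZA libraries (left) and 80 A17 libraries (right) by strain. Most medians lie near 0, and the lowest is A17 plant 3110 with strain 216 at -1.71.

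Where the average was low, most members were low. In DZA plant 3314 with strain 748B the average was 4.65 and the quartiles of the members' deviations from their own means were -0.83 and -0.38. Its library had a rhizobial share of 81.1%, and the 10 most abundant plant genes took 86.1% of its plant counts. A17 plant 3246 with strain 724B had 4.76 with a share of 74.7%, and A17 plant 3487 with strain 176A had 4.77 with 64.5%. The eligible genes were lower still in these libraries. Their median deviation was -1.06 in plant 3314, -0.84 in plant 3246 and -0.91 in plant 3487, against -0.61, -0.48 and -0.50 for the members. The share of plant counts taken by the 200 genes together ranged from 0.167% to 1.41%, with a median of 1.05%. What part the rhizobial RNA or the few dominant transcripts had in these low libraries was not tested.

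By gene, the host difference was small. The log2 difference, DZA over A17, ran from -0.30 to 0.29 over the members with a median size of 0.07, against a median size of 0.22 over eligible genes. The standard error of a member's difference had a median of 0.046. By edgeR's test 76 members passed an adjusted p of 0.05, 38% of 200, beside 53.2% of all 37672 genes tested. Of these, 44 were higher on DZA, beside 27.1% of all genes, and 32 were lower on DZA, beside 26.1%. Since the members were chosen for a small spread over both hosts, nothing is read from these shares. The direction was not firm. Without A17 plant 3110, 32 were higher and 54 lower on DZA, beside 10587 and 10454 of all 37623 genes. With plain plant totals 0 were higher and 21 lower on DZA, beside 7205 and 9634 of all 37672 genes.

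The largest member difference was in MtrunA17_Chr2g0326991, with 12.5, 21.0 and 26.8 CPM as lowest, median and highest in DZA, against 11.3, 26.1 and 32.7 CPM in A17. The groups overlapped, and the log2 difference was -0.30 ± 0.04 (SE, adjusted p = 1.37e-10, edgeR). MtrunA17_Chr7g0214901 had 16.1, 32.6 and 43.1 CPM in DZA libraries and 5.01, 26.8 and 34.1 CPM in A17 libraries, a log2 difference of 0.29 ± 0.05. MtrunA17_Chr1g0200641 and MtrunA17_Chr4g0039271 were also higher on DZA, by 0.27 and 0.26, and MtrunA17_Chr4g0026411 was lower, at -0.26. The smallest differences were in MtrunA17_Chr1g0210361, MtrunA17_Chr2g0304751 and MtrunA17_Chr4g0017211, each at 0.00 on the log2 scale to 2 decimals with standard errors of 0.045 to 0.050. MtrunA17_Chr2g0304751 had a DZA median of 130.7 CPM and an A17 median of 130.6 CPM.

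The spread among strains on each host was part of the SD that chose the members, so their strain ranges and calls are given as a description. The range of the 20 strain means had a median of 0.44 on DZA and 0.55 on A17 on the log2 scale, against 0.92 and 1.03 over eligible genes. By the F test of strain in edgeR, 0 members passed on DZA, beside 4.2% of 34224 genes tested, and 0 passed on A17, beside 1.63% of 34843. Over the eligible genes 5.85% passed on DZA and 0.884% on A17. At an unadjusted p of 0.05, 5 members passed on DZA, 2.5% of 200, and 0 on A17. Both shares are below what that threshold alone would let pass. In limma-voom 0 members were called on each host, beside 3.51% of all genes on DZA and 0.258% on A17. With 4 plants a strain the test can miss changes, and the widest strain range of any member was 0.96 on DZA and 0.95 on A17. In simulated data the strain test found 47.5% on DZA and 50.5% on A17 of log2 changes of 2 in 1 strain. Those genes were not chosen for steadiness and could lie below 20 CPM, so the share for genes like the members was not measured. Of the alternatives, the count moved on DZA without the library of strain 182 plant 3406, where 1 member, MtrunA17_Chr7g0244481, passed. This member was named after its value was seen. Over all genes 3.82% passed in that setting.

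The widest strain range on DZA was in MtrunA17_Chr1g0189211. Its DZA plants had 26.5, 38.7, 41.8 and 44.2 CPM with strain 230 and 11.8, 19.8, 21.8 and 23.6 CPM with strain 748B, and these 2 groups, picked as the extremes, did not overlap. On A17 the same strains gave 21.7 to 32.5 CPM and 18.7 to 30.7 CPM, which overlapped. MtrunA17_Chr1g0197351 had 17.7 to 54.7 CPM with strain 89 and 14.0 to 21.1 CPM with strain 278 on DZA, and the wide range of strain 89 rested on 1 plant at 54.7 CPM. MtrunA17_Chr5g0400151 had 21.1 to 34.2 CPM with strain 283 and 9.28 to 18.5 CPM with strain 748B on DZA. Strain 748B on DZA holds the library with the lowest member average on that host, at 4.65.

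The variation of the members was split among hosts, strains and plants as a description. Of a member's sum of squares, the median part among the 4 plants of a host and strain group was 77.9%, against 1.78% between hosts, 8.21% among strains and 10.9% for strains differing between hosts. By their degrees of freedom alone, with no host or strain difference, these parts would average 75.5%, 0.629%, 11.9% and 11.9%. Over eligible genes the corresponding medians were 74.9%, 3.86%, 8.35% and 9.50%. The library of A17 plant 3110 held a median of 22.3% of a member's sum of squares and 14.6% of that of an eligible gene.

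For the members the sign of the slope on the rhizobial share followed the scaling. In a fit with host and strain, 144 members had a slope on the share that passed, 72% of 200, beside 76.8% of all genes. Of these 1 rose, beside 40.2% of all genes, and 143 fell, beside 36.6%. Over the eligible genes 83.5% passed, with 9.08% rising and 74.4% falling, against 0.5% and 71.5% of the members. The members were drawn from the eligible genes, and nothing is read from these shares. The median slope was -0.04 on the log2 scale per 10 percentage points, against -0.11 over eligible genes. With median-ratio size factors 169 members rose and 0 fell, beside 21263 and 7195 of all 37672 genes. With plain plant totals 0 members rose and 200 fell, beside 8565 and 21988 of all genes. With TMM but without the filter on low counts 39 rose and 64 fell, beside 24667 and 11229 of 48646 genes. Without A17 plant 3110 there were 17 that rose and 103 that fell, beside 15135 and 13142 of 37623 genes. The scaling moved all genes together, since the median slope over all genes tested was 0.01 with TMM, 0.11 with median-ratio factors and -0.18 with plain plant totals. Relative to that median, the members' median slope was -0.06 under each of these 3 scalings. No direction with the rhizobial share can thus be stated for these genes apart from the scaling chosen.

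The rule was also read in libraries that had not chosen the genes. Genes chosen on the 80 A17 libraries alone, with scaling factors from those libraries, were read in the 80 DZA libraries. Of the 200 chosen on A17, 75 were also among the 200 steadiest on DZA, 37.5%, where the list takes 4.76% of the genes eligible on DZA. Their median SD on DZA was 0.251, with quartiles of 0.224 and 0.283, against 0.479 on DZA for all 4575 genes eligible on A17, and 199 of the 200 were below that median. In the reverse direction, the 200 chosen on DZA had a median SD of 0.308 on A17, against 0.544 for all 4199 genes eligible on DZA, and all 200 were below it. Without A17 plant 3110 the shared count was 103 and the median on A17 was 0.212. With plain totals it was 104 or 105, with median-ratio factors 89 and with upper quartile factors 82. Genes steady on A17 thus had a small spread on DZA too, and the reverse, while the lists of the hosts shared 61 to 105 of 200 genes over these settings and the removal of each replicate.

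**Figure D4:**
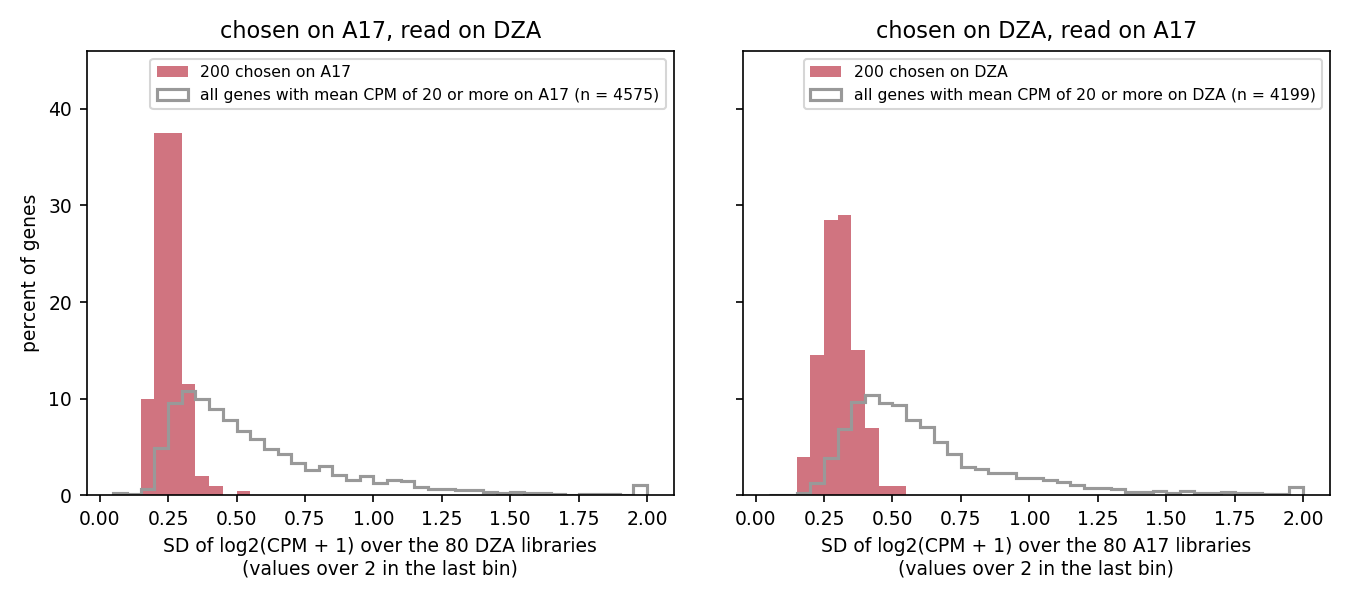
Percent of genes by SD of log2(CPM + 1) in the host that did not choose them, for 200 chosen genes (red, filled) and all genes eligible in the choosing host (grey line), with A17-chosen genes read on DZA (left) and DZA-chosen genes read on A17 (right). The medians of the chosen genes are 0.251 and 0.308, against 0.479 and 0.544 for all genes.

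The list changed with the scaling. The rule for the list gives CPM without naming a denominator, and of the 200 genes under TMM only 18 were kept with plain CPM by all plant counts, 17 by counts of MtrunA17_Chr genes and 19 by the counts of both organisms. The members' median SD was 0.707 with plain plant totals, and the smallest SD of any eligible gene was 0.421. Upper quartile factors kept 101 and median-ratio size factors 80, with members' median SDs of 0.260 and 0.235. A ranking by the mean SD of a gene's log2 ratio to every other eligible gene, a measure in which library scaling largely cancels, kept 38. Leaving out A17 plant 3110 alone kept 137, and leaving out replicates 1 to 4 in turn kept 133 to 166.

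**Figure D5:**
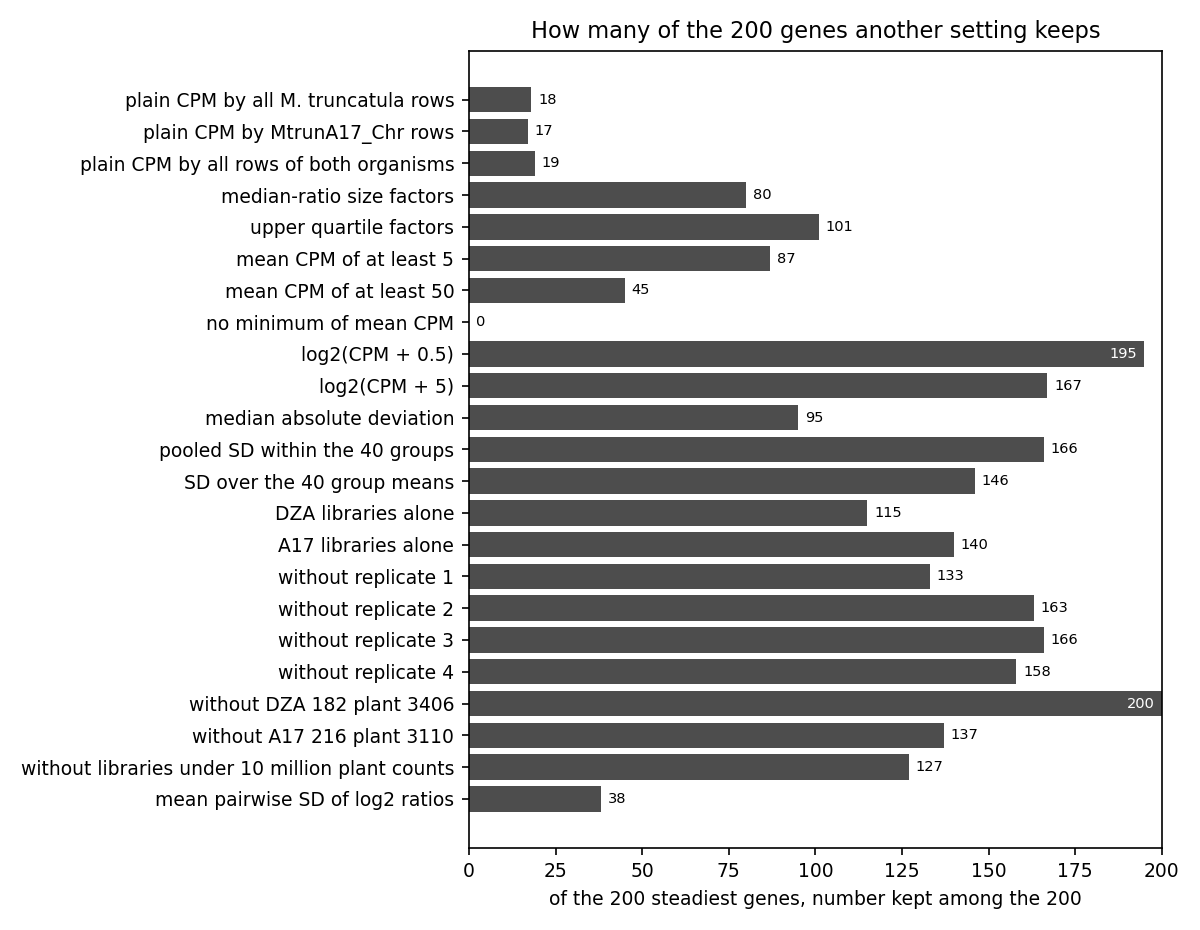
Number of the 200 genes that stayed among the 200 steadiest under each other setting (bars, from 0 to 200). Plain totals keep 17 to 19, other between-sample scalings 80 and 101, and the removal of DZA plant 3406 keeps 200.

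A core of 45 genes was among the 200 steadiest under TMM, median-ratio and upper quartile scaling, each with and without A17 plant 3110, and 30 of these were also in the list by pairwise log2 ratios. The core was drawn after these values were seen and is a description. It held 4 of the 10 steadiest genes (MtrunA17_Chr3g0121221, MtrunA17_Chr3g0135621, MtrunA17_Chr8g0348881 and MtrunA17_Chr3g0123681) and left out the first, MtrunA17_Chr7g0272631, which stood at rank 405 with median-ratio factors. Under all those rankings MtrunA17_Chr3g0117281 was placed high, at rank 25 with TMM, 2 with median-ratio factors, 8 with upper quartile factors and 64 by pairwise ratios, with a mean of 71.9 CPM. MtrunA17_Chr4g0052561, at 105 CPM, stood at ranks 52, 3, 3 and 78. MtrunA17_Chr1g0175741, a hypothetical protein at 51.8 CPM, was the steadiest of all with median-ratio factors and by pairwise ratios, and stood at rank 173 with TMM.

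Used as a denominator, the 200 genes gave other genes a smaller spread than plant totals or TMM did, but not than median-ratio factors. The members were chosen in these same libraries, so this is a description. The 4084 eligible genes that were in none of the lists had a median SD of 0.495 on DZA and 0.490 on A17 when each library was scaled to the geometric mean of the members. With TMM these medians were 0.528 and 0.605, with plain plant totals 0.940 and 0.949, and with median-ratio factors 0.475 and 0.466. Upper quartile factors gave 0.488 on DZA, below the members' value, and 0.516 on A17, above it. Scaling by the 3 steadiest genes alone gave 0.516 and 0.542, and by the core of 45 genes 0.484 and 0.478. For the scale of genes chosen on A17 only, the median on DZA was 0.488, and for genes chosen on DZA only, the median on A17 was 0.466. Which of these scales is closest to the amounts per cell was not tested.

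The factors from the members stayed closer to median-ratio factors, with an SD of 0.12 between them on the log2 scale, than to TMM factors, with 0.20, or to plain plant totals, with 0.71. Without A17 plant 3110 these SDs were 0.12, 0.14 and 0.71, so much of the gap to TMM came from that library. The factors from the 3 steadiest genes differed from those of all 200 by an SD of 0.14, and by at most 0.93, in A17 plant 3110. The mean log2 ratio of the member factor to the TMM factor was 0.02 higher on DZA than on A17.

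Nodule markers, which were not members, gave the same host calls on the TMM scale and on the scale of the 200 genes. The members were chosen for a small spread over both hosts with TMM, so these scales differed by only 0.02 between hosts. Equal calls follow from that choice and are no test of the 200 genes as references. NIN had 71.4, 186 and 301 CPM as lowest, median and highest of the DZA libraries and 16.1, 191 and 271 CPM of the A17 libraries. Its log2 difference, DZA over A17, was -0.02 ± 0.06 on the member scale and -0.03 ± 0.07 with TMM (SE), and neither passed (adjusted p = 0.732 and 0.746, edgeR). SymCRK was lower on DZA, with a log2 difference of -0.58 ± 0.12 on the member scale (adjusted p = 7.32e-06), with medians of 78.0 CPM on DZA and 120 CPM on A17. VTL8, a vacuolar iron transporter-like protein of nodules that the study also calls SEN1, was higher on DZA by 0.54 ± 0.13 (adjusted p = 9.87e-05), with medians of 91.6 CPM on DZA and 71.0 CPM on A17. NF-YA1 was higher on DZA by 0.22 ± 0.06, and DNF1, a signal peptidase subunit needed to process secreted nodule peptides, was lower, with a log2 difference of -0.22 ± 0.07. Of the 18 nodule and leghemoglobin markers, 11 passed on both the TMM and the member scale, each with the same sign on both. Of these 6 were higher and 5 lower on DZA. Over all 37672 genes 53.2% passed with TMM. On the member scale 9687 of all genes passed as higher and 9992 as lower on DZA. With plain plant totals NF-YA1 and DNF1 kept their sign and did not pass (adjusted p = 0.4 and 0.0643, edgeR). The same held for DNF2, SYMREM1 and the leghemoglobin gene MtrunA17_Chr1g0197531 (adjusted p = 0.2, 0.0924 and 0.125, edgeR).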

How the data were processed

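The deposited table holds expected counts per gene for 160 nodule libraries, which the authors made with Salmon 1.4.0 against transcripts of both organisms, A17 r5.0 for the plant, summed with tximport and not scaled for depth. The plant transcripts included ribosomal and other noncoding RNA, so plant totals can include these. Multi-mapped reads are shared out by Salmon, so copies of a gene can exchange counts. Values were rounded to whole counts. TMM factors were computed on M. truncatula genes with at least 10 counts in 4 libraries, and members were the 200 genes with the smallest SD of log2(CPM + 1) among MtrunA17_Chr genes of 20 CPM or more on average. The members and lists were chosen with earlier results of these data known. Host (strain as covariate), strain within a host, and slope on rhizobial share (host and strain as covariates) were tested with edgeR 4.0.16 quasi-likelihood F tests in R 4.3.3, with Benjamini-Hochberg adjustment over all genes tested and a threshold of 0.05. When tested on simulated data, the strain test made more false calls than its threshold allows, 29.1% of its calls on DZA and 34.0% on A17. Of these 39 and 52 false calls, 0 and 3 were among genes of 20 CPM or more. Its share of calls over all genes may thus be high. Alternatives were other scalings, filters, pseudocounts and measures of spread, limma 3.58.1, DESeq2 1.42.0, leaving out replicates and leaving out single libraries, of which A17 plant 3110 was chosen after seeing the data. Member counts in these tests are descriptions, since the same libraries chose the members. Named genes were the 10 members with the smallest SD, the 10 highest by level, the 5 largest and 3 smallest host differences, the 3 widest strain ranges on DZA, 3 genes on each side of the edge and the steadiest gene of each conventional reference family. The p-values measure the spread between plants. Gene descriptions and terms came from annotation columns of the study's supplementary files, and no values were taken from them. The terms were those the study listed as enriched in its top modules of coexpressed plant genes. The M. truncatula identifiers were not paired with sequences or symbols in the reference used here.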

Additional observations from a re-analysis of the deposited data

Results flagged for a closer look

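In 6 of the 40 host and strain groups the plant with the lowest average level of the 200 genes, log2(CPM + 1), lay apart from the other 3 plants of its group. All 6 were low, and chance alone sets a plant apart in about 1 in 20 groups of 4. A17 plant 3110 with strain 216 had an average of 3.58, against a highest of 5.41 in its group, and a rhizobial share of 96.3%. A17 plant 3282 with strain 335 had 4.96, against 5.38, with a share of 65.6%, and A17 plant 3246 with strain 724B had 4.76, against 5.38, with a share of 74.7%. On DZA, plant 3340 with strain 25B had 4.97, against 5.29, with a share of 79.0%. DZA plant 3443 with strain 282 had 4.96, against 5.33, with a share of 69.1%, and DZA plant 3314 with strain 748B had 4.65, against 5.31, with a share of 81.1%. Each of the 6 had the highest rhizobial share of its group of 4. A high share did not always go with a low average: A17 plant 3322 with strain 335 had a share of 58.7% and an average of 5.38. In each of the 6 the median deviation of the eligible genes from their own means was below that of the members, so the low level was not particular to the members. The part of the rhizobial share in these values was not tested. With median-ratio size factors none of the 6 was below the mean over all libraries, and the deviations of their averages from it ran between 0.09 and 0.23.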

How the results depend on the processing

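The list was the result that moved most. Of the 200 genes, plain CPM kept 18 by all M. truncatula counts, 17 by MtrunA17_Chr counts and 19 by the counts of both organisms. Median-ratio size factors kept 80 and upper quartile factors 101. A minimum mean of 5 CPM kept 87, one of 50 CPM kept 45 and no minimum kept 0, since genes without counts then have the smallest SD. The median absolute deviation kept 95, DZA libraries alone 115 and the removal of each replicate 133 to 166. Among alternatives chosen after seeing the data, leaving out libraries under 10000000 plant counts kept 127 and pairwise log2 ratios 38. Without A17 plant 3110, median-ratio factors kept 61, upper quartile factors 69 and plain CPM 15. The members' median SD of 0.289 became 0.707, 0.711 and 1.135 with the 3 plain totals, 0.235 with median-ratio factors, 0.260 with upper quartile factors, 0.251 with log2(CPM + 5), 0.245 without A17 plant 3110 and 0.251 to 0.287 without each replicate.

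With plain plant totals 21 members were called between hosts in place of 76, beside 44.7% of all genes in place of 53.2%. Without each replicate 53 to 70 members were called, beside 46.8% to 52.2% of all genes. Members called by slope were 82 to 117 without each replicate, in place of 144. Over all genes these shares were 68.8% to 71.8%, in place of 76.8%. Under median-ratio factors all 169 members that passed rose, while over all genes 21263 rose and 7195 fell. Without DZA 182 plant 3406, 1 member was called by strain on DZA, beside 3.82% of all genes. Of the 5 largest host differences none changed sign, and 3 no longer passed with plain totals. No paired analysis was possible because replicate numbers follow accession order only. The cause of these shifts was not tested. Poisson error gives the members a median SD of 0.060, and whether depth has a part in the shifts was not tested.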
